A study of Rattus norvegicus with 12 samples.

Results

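Expression of 6 genes of the brain endothelium and the blood-brain barrier was examined in the motor cortex of 12 rats. The genes were chosen as a list of symbols and Ensembl identifiers: Vegfa (ENSRNOG00000019598), Flt1 (ENSRNOG00000000940), Kdr (ENSRNOG00000046829), Vwf (ENSRNOG00000019689), Slc2a1 (ENSRNOG00000007284) and Abcb1a (ENSRNOG00000008012). All 6 were among the 16534 features measured. Levels are in CPM, the reads of a gene scaled to a common library total, and all 6 genes passed the filter of a mean level of 0.5 CPM, as did 14985 features in all. The pairing of symbol and identifier is that of the list, since no annotation used here joins the identifiers to symbols.

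The rats were controls, rats made parkinsonian with 6-OHDA, a toxin taken up by catecholamine neurons (PD, for Parkinson's disease), stimulated controls and stimulated PD rats, with 3 rats in each group. Stimulation, given wirelessly by a graphene array at the primary motor cortex, ran at 130 Hz in daily sessions of 1 hour for 2 weeks, per the design text. Strain, age, hemisphere, any sham surgery and the schedule of stimulated controls were not given in the sources used here. Below, the term lesioned covers PD and stimulated PD rats, and unlesioned the other 6 rats. Libraries held 42905441 to 62082830 counted reads, and libraries of the same group had a Pearson's r of 0.961 to 0.992 across features (log2 values; features are not independent replicates). The tissue label was not checked against cell type markers, because the markers could not be matched to identifiers.

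Endothelial cells line brain capillaries and form the blood-brain barrier: tight junctions seal them, carriers bring nutrients across and efflux pumps return foreign compounds to the blood. Vegfa is the growth factor that endothelial cells depend on, made by glia and neurons and induced when oxygen is low. Kdr (VEGF receptor 2) carries most of its signal, and Flt1 (VEGF receptor 1) binds it tightly and also acts as a decoy. Slc2a1 (GLUT1) is the glucose carrier of the barrier and is present in astrocytes as well. Abcb1a encodes P-glycoprotein, the main efflux pump, and Vwf encodes von Willebrand factor, a clotting glycoprotein that endothelial cells store and release.

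Promoter windows from RefSeq (build GRCr8, 250 bases before to 50 after an annotated start) were found for 5 of the 6 genes. They are shown for Flt1 and Abcb1a, whose levels followed each other closely across rats, and for Slc2a1, the only one of the 5 genes with a hypoxia response core within these windows. Sites outside the windows were not searched. Each window reads 5′ to 3′ on the gene's own strand, and capitals mark a GC box (GGGCGG or its reverse complement CCGCCC) or the hypoxia response core (ACGTG or CACGT). The read data were aligned to mRatBN7.2, so the GRCr8 positions locate the windows only.
Flt1, chr12:12333180-12333479, plus strand: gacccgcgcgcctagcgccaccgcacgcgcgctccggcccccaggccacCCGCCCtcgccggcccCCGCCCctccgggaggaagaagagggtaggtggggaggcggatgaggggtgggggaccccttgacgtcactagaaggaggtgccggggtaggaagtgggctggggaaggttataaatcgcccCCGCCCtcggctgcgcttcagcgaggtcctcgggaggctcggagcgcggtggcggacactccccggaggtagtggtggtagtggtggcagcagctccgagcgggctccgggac
Abcb1a, chr4:26397599-26397898, minus strand: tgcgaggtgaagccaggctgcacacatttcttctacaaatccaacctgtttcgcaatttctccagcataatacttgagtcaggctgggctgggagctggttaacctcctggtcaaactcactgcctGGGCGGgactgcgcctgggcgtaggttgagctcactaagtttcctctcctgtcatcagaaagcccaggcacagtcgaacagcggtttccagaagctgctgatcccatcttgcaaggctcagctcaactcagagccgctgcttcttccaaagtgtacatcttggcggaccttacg
Slc2a1, chr5:138002272-138002571, plus strand: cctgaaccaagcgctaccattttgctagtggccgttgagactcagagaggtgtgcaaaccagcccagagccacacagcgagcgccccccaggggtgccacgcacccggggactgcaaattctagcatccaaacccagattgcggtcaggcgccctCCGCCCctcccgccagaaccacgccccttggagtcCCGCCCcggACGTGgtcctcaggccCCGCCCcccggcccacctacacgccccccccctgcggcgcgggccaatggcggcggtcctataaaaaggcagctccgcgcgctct

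The first window of each of the 5 genes held a GC box: 3 in Slc2a1, Flt1 and Vegfa, and 1 in Kdr and Abcb1a. Of all 33469 windows of 300 bases, 33.1% held one on either strand. These 5 windows had 53.7% to 72.7% G and C, against a median of 51.7% over all windows. The hypoxia response core, held by 19.3% of all windows, began 51 bases before the Slc2a1 start. The letters AGGAAG or CTTCCT, an ETS factor core held by 34.5% of windows, occurred at 2 places in Flt1 and in no other window of these genes. None of the 3 motifs was found in the second Vegfa window. Motifs were searched on both strands and chosen with the windows in view. These are letter matches, not measured binding.

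All 6 genes were lower in lesioned than in unlesioned rats when the difference was averaged over the unstimulated and the stimulated pair of groups, with Vwf the furthest apart. By limma (log2(CPM + 0.5), all 12 libraries fitted, Benjamini-Hochberg adjusted over all features tested), 6 of 6 passed as lower at an adjusted p under 0.05. Of all tested features 18.0% passed as lower, and 4.99% as higher. The log2 fold change was -1.24 for Vwf (SE 0.23, limma adjusted p = 0.00727), a 2.36-fold lower level with a 95% confidence interval of 1.66 to 3.36. It was -0.69 for Abcb1a (SE 0.19, limma adjusted p = 0.0236), a 1.61-fold lower level. Slc2a1 followed with -0.55 (SE 0.14, limma adjusted p = 0.0173), and Vegfa with -0.50 (SE 0.10, limma adjusted p = 0.00914). The 2 receptors fell least, Flt1 by 0.47 and Kdr by 0.45 on the log2 scale (limma adjusted p = 0.0369 and 0.0354).

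In single rats the groups were less distinct. For Slc2a1, Flt1, Vwf and Vegfa 5 of the 6 lesioned libraries, and for Kdr and Abcb1a 4 of 6, lay below the lowest unlesioned one. No gene (0 of 6) had all lesioned libraries below all unlesioned ones, as 6.88% of features did. The median level was 49.5 CPM in lesioned and 117 CPM in unlesioned rats for Vwf, 90.7 and 132 CPM for Vegfa, and 35.4 and 55.0 CPM for Abcb1a.

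The distribution of all features also leaned towards lower values. The median log2 fold change of all tested features was -0.12, against -0.53 for the 6 genes, and TMM factors, median-of-ratios factors and quantile normalization moved it to 0.01, 0.01 and 0.04. Lower features made up 78.3% of all calls as deposited, but 45.9%, 50.5% and 44.2% under those 3 rescalings. Each of the 6 genes had a negative log2 fold change under all 3, and by edgeR and DESeq2. Vwf, Slc2a1, Abcb1a and Vegfa passed under each of these 5 settings. Flt1 and Kdr passed under none of them (adjusted p 0.0532 to 0.121 and 0.0609 to 0.165). Over all tested features, 2703 (18.0%) were called lower as deposited. With TMM factors, median-of-ratios factors and quantile normalization the number was 1603, 1669 and 1425, and by edgeR and DESeq2 it was 1640 and 2152. With the median of all features subtracted, the log2 difference was -1.12 for Vwf, -0.57 for Abcb1a, -0.43 for Slc2a1, -0.38 for Vegfa, -0.35 for Flt1 and -0.33 for Kdr. Of all tested features, 1.47% had a log2 fold change as low as that of Vwf, and 18.7% one as low as that of Kdr.

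**Figure D1:**
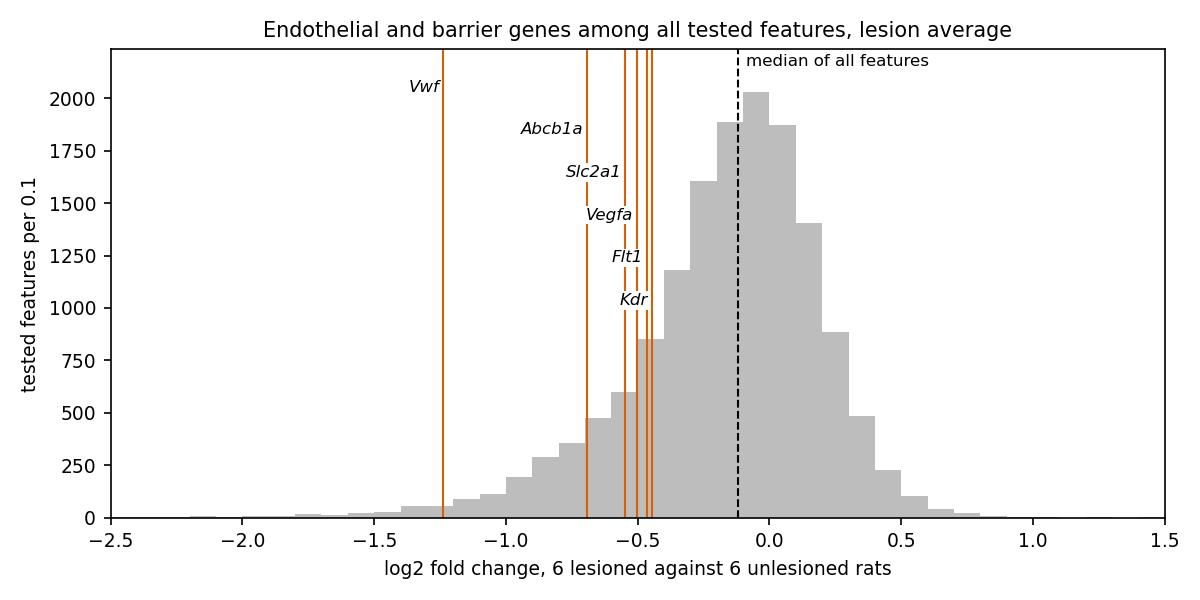
Number of tested features per 0.1 of log2 fold change (grey bars) for the lesion averaged over both pairs of groups, with the 6 genes as orange lines and the median of all features as a dashed line; 5 features below -2.5 and 4 above 1.5 lie outside the axis. Vwf, at -1.24, lies in the lower tail, whereas the other 5 genes lie between -0.69 and -0.45.

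Without stimulation, each gene had all 3 PD libraries below all 3 control libraries. Among all tested features, 23.3% were separated in this direction. Vwf and Vegfa fell by the test, so 2 of 6 passed as lower, where 4.10% of all features did. For the other 4 genes the limma adjusted p was 0.0580 to 0.110. DESeq2 called Vwf, Abcb1a, Flt1 and Kdr, 4 of 6, where it called 1140 features (7.61%) lower. Only Vwf, 1 of 6, was called by edgeR, where 369 of the 14985 features were called lower. Of all limma calls 93.6% were lower as deposited, and 68.6%, 76.9% and 68.1% with TMM factors, median-of-ratios factors and quantile normalization. In bulk tissue, fewer of the cells that make a transcript and less of that transcript per cell cannot be told apart.

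The Vwf level was 114, 120 and 131 CPM in control rats 1, 2 and 3, and 46.1, 21.7 and 37.8 CPM in PD rats 1, 2 and 3. The lowest control thus stood far above the highest PD rat. The difference amounted to -1.84 on the log2 scale (SE 0.33, limma adjusted p = 0.0202), a 3.58-fold lower level (95% confidence interval 2.17 to 5.90). The call was lost without control rat 1 (adjusted p = 0.0959), control rat 2 (0.0633) or PD rat 2 (0.0615), while the fold change stayed between -2.07 and -1.53 under all 23 alternatives.

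For Vegfa, the ligand, the level was 141, 129 and 121 CPM in the control rats and 95.1, 76.0 and 90.2 CPM in the PD rats. The groups lay apart, with PD rat 2 the lowest. The log2 difference between the groups was -0.58 (SE 0.15, limma adjusted p = 0.0469), close to the threshold. The call held in 6 of 23 alternatives, with the adjusted p ranging from 0.0426 to 0.189, and was lost with TMM factors, median-of-ratios factors, quantile normalization, edgeR and DESeq2.

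Of the receptors, Flt1 stood at 82.3, 92.5 and 86.6 CPM in control rats 1, 2 and 3 and at 69.8, 40.2 and 49.4 CPM in the PD rats. PD rat 1 lay nearer to the controls than to PD rat 2 (log2 fold change -0.74, SE 0.20, limma adjusted p = 0.0580). Without PD rat 1 the log2 fold change was -0.96 (limma adjusted p = 0.0266). Kdr had 20.1, 16.1 and 14.1 CPM in control and 11.4, 8.55 and 10.6 CPM in PD rats. Its groups were separate but close, and control rat 1 was the highest of the 6 (log2 fold change -0.69, SE 0.19, limma adjusted p = 0.0626). Kdr had the fewest reads of the 6 genes, 462 to 1294 per library, and counting error was at most 4.65% of its level, below the spread between rats of 14.6% to 21.0% of the mean in each group. The other 5 genes had 1066 to 11682 reads per library, with a counting error of at most 3.06%.

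Of the transporters, Slc2a1 had 169, 184 and 170 CPM in control rats and 109, 123 and 123 CPM in PD rats. Both groups were tight, with an SD of 4.81% and 6.84% of the mean (log2 fold change -0.56, SE 0.19, limma adjusted p = 0.110). When limited to these 2 groups, the fit gave a limma adjusted p of 0.0498, the only 1 of 23 alternatives in which Slc2a1 passed. Abcb1a had 51.0, 64.0 and 57.1 CPM in control and 39.9, 19.7 and 31.0 CPM in PD rats, of which PD rat 2 was the lowest (log2 fold change -0.97, SE 0.27, limma adjusted p = 0.0600). Without PD rat 1 or stimulated PD rat 3 its limma adjusted p was 0.0383 and 0.0306. Without PD rat 2 its log2 fold change was -0.69 (limma adjusted p = 0.144), and Abcb1a passed in 3 of 23 alternatives. Abcb1a has a close paralog, and how reads matching both copies were assigned is not given in the sources used here, so its values may hold reads of that copy.

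**Figure D2:**
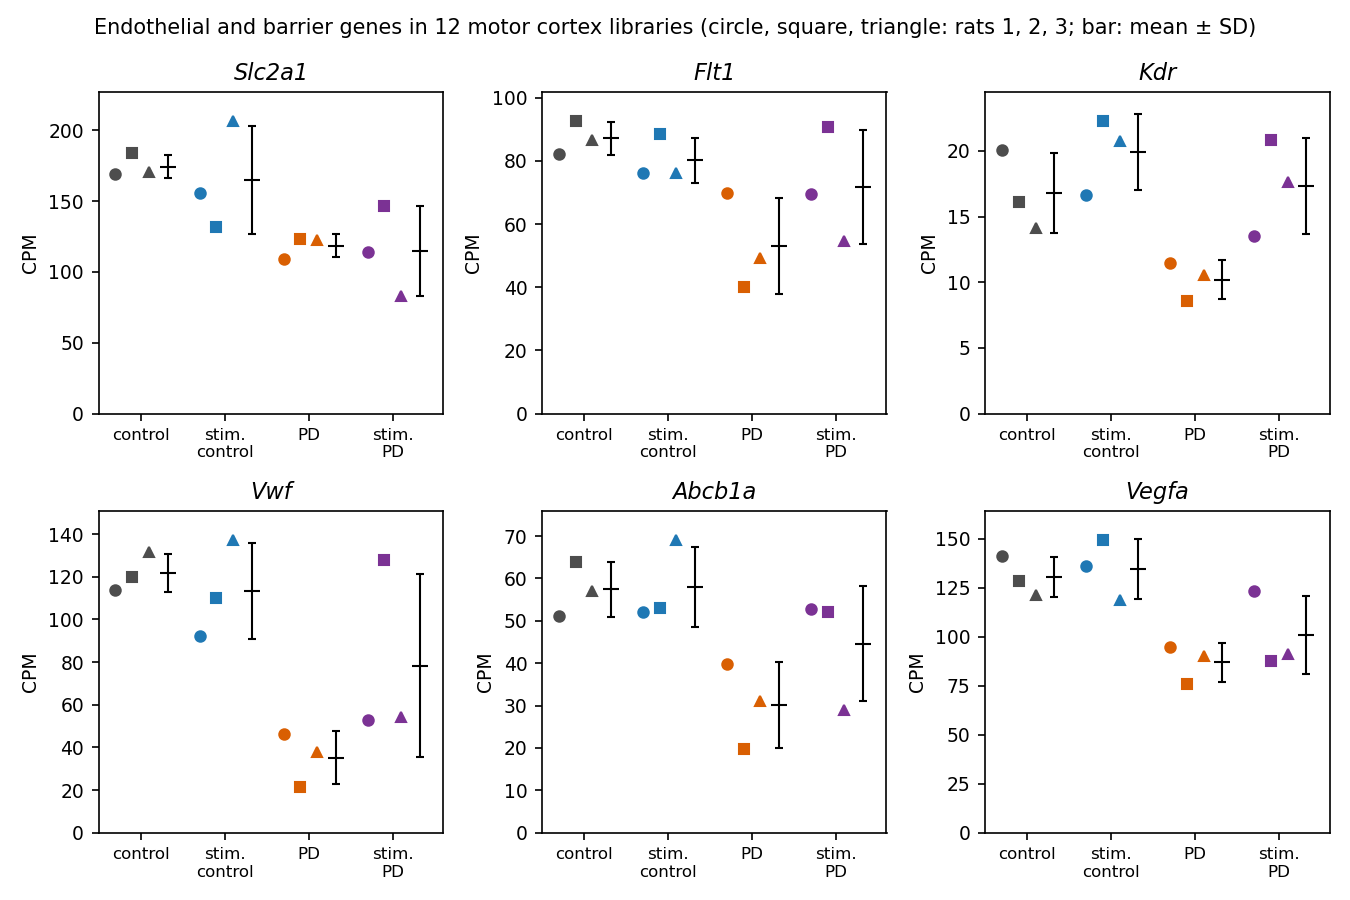
CPM of the 6 genes (1 panel each, vertical axis from 0) in each rat, by group, with the mean ± SD (n = 3) beside the points. In every panel the 3 PD rats lie below the 3 controls, and in the Vwf panel stimulated PD rat 2, at 128 CPM, stands among the controls.

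PD rat 2 was the lowest of all 12 libraries for Flt1, Kdr, Vwf, Abcb1a and Vegfa. Stimulated PD rat 3, at 83.2 CPM, was the lowest for Slc2a1. In PD rats 1, 2 and 3 the median log2 difference of the 6 genes from the control mean was -0.52, -1.01 and -0.72, whereas the median of all tested features was -0.16, -0.20 and -0.06. Between PD and control rats 0 of 6 genes passed without PD rat 2, control rat 1 or control rat 2, but few features did so either: 0.527%, 0.0133% and 0.334% of all were then called lower. In this comparison 4 of 6 passed without PD rat 1, where 3.81% of features were called lower, and 4 of 6 without stimulated PD rat 3, where 5.97% were. Without PD rat 2, 5 of 6 passed for the lesion average, Flt1 being the exception at a limma adjusted p of 0.0509, and 22.2% of features were called lower. Without control rat 2 or stimulated control rat 3 only 3 of 6 passed for the lesion average; Flt1, Kdr and Abcb1a did not, with adjusted p of 0.0575 to 0.0819. Calls dropped over all features as well, from 18.0% called lower to 11.7% and 10.1% in these 2 cases.

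**Figure D3:**
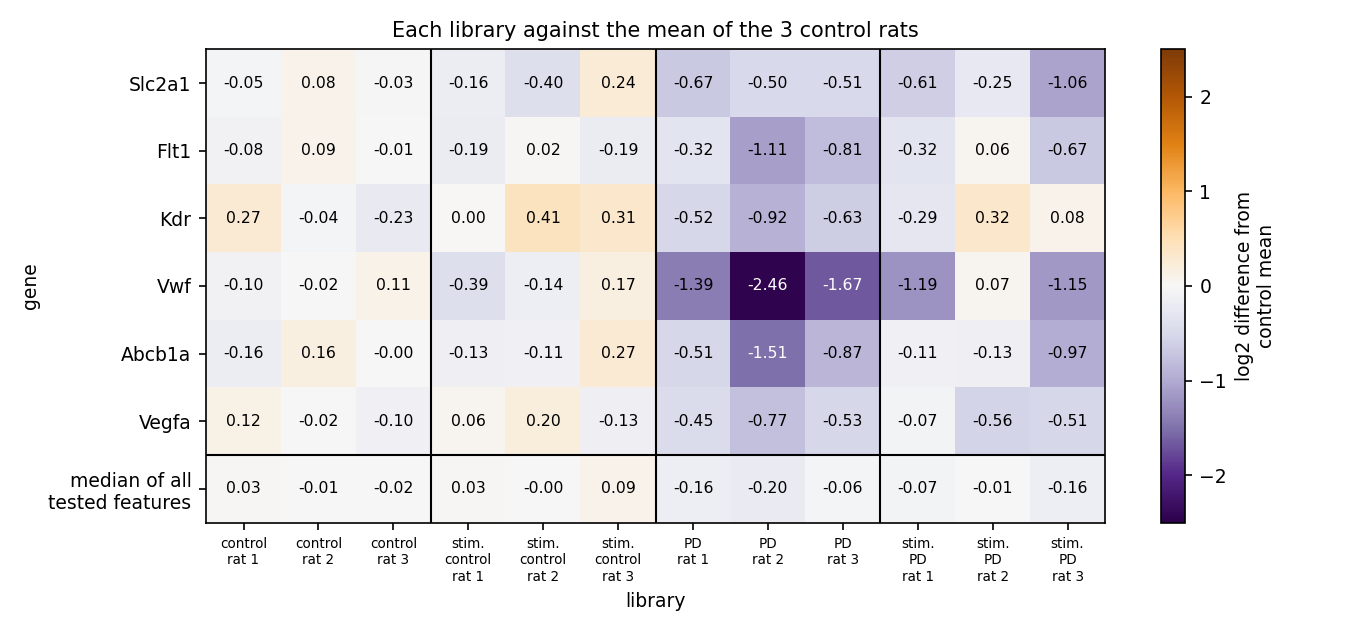
Log2 difference of each library (columns, by group) from the mean of the 3 control rats for the 6 genes (rows) and for the median of all tested features (bottom row). PD rat 2 is lowest for Vwf at -2.46, and stimulated PD rat 2 is at 0.07 for Vwf but at -0.56 for Vegfa.

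Among stimulated rats, the lesioned and unlesioned groups share no library with the unstimulated pair. All 6 genes had lower means in stimulated PD than in stimulated control rats, but 0 of 6 passed by limma, where 1.45% of all features did in either direction; Slc2a1 and Vegfa had an unadjusted p under 0.05, as 26.3% of features did, and edgeR and DESeq2 also called 0 of 6. Over all features, DESeq2 called 979 as lower and 1040 as higher, and edgeR called 7 and 8. The libraries of the 2 groups overlapped for all 6 genes, while 27.1% of all features were separated as lower. Lower features were 69.6% of all limma calls as deposited, and 31.2%, 57.1% and 36.2% with TMM factors, median-of-ratios factors and quantile normalization. The log2 difference was -0.64 for Vwf (SE 0.33, limma adjusted p = 0.241), -0.54 for Slc2a1 (SE 0.19, limma adjusted p = 0.115), -0.43 for Vegfa (SE 0.15, limma adjusted p = 0.101) and -0.42 for Abcb1a (SE 0.27, limma adjusted p = 0.340). For Flt1 and Kdr it was -0.19 and -0.21, with 95% confidence intervals of -0.63 to 0.25 and -0.63 to 0.21.

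Stimulated PD rats were uneven. Vwf stood at 52.9, 128 and 54.3 CPM in stimulated PD rats 1, 2 and 3, and at 92.4, 110 and 137 CPM in the stimulated controls. Rats 1 and 3 lay below every stimulated control, and rat 2 lay within their range. Slc2a1 had 114, 147 and 83.2 CPM in stimulated PD and 156, 132 and 206 CPM in stimulated control rats, so that stimulated PD rat 2 was above 1 of the controls. Abcb1a had 52.7, 52.1 and 28.9 CPM in stimulated PD and 52.2, 52.9 and 68.9 CPM in stimulated control rats, and only stimulated PD rat 3 stood clearly lower. Flt1 had 69.6, 90.7 and 54.6 CPM in stimulated PD and 76.0, 88.5 and 76.1 CPM in stimulated control rats, with rat 2 of the former the highest of the 6. Kdr had 13.5, 20.8 and 17.6 CPM in stimulated PD and 16.7, 22.3 and 20.8 CPM in stimulated control rats, ranges that mostly coincided.

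For Vegfa the order of the stimulated PD rats was another. It stood at 124, 87.8 and 91.1 CPM in stimulated PD rats 1, 2 and 3, and at 136, 149 and 119 CPM in stimulated controls. Here rat 1 was the highest of the 3 and rat 2 the lowest, whereas for Vwf, Slc2a1, Flt1 and Kdr rat 2 was the highest of the 3.

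The difference between the 2 lesion effects was tested as an interaction. It was called for 0 of 6 genes and 0% of all features by limma, and for 0 of 6 by edgeR and DESeq2. Over all features edgeR called 0, whereas DESeq2 called 2 with a negative and 28 with a positive interaction. Of the 6, only Vwf had an unadjusted p under 0.05, where 4.13% of features did. Its lesion difference was nearer to 0 among stimulated rats by 1.20 on the log2 scale (SE 0.47, 95% confidence interval 0.18 to 2.22, limma adjusted p = 0.834). Over 22 alternatives this value ran from 0.79 to 1.43, with an adjusted p from 0.155 to 0.9998. Without stimulated PD rat 2 the Vwf lesion difference among stimulated rats was -1.05 (limma adjusted p = 0.0935), against -0.64 with that rat. For Slc2a1 the interaction was 0.02 (95% confidence interval -0.58 to 0.62).

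**Figure D4:**
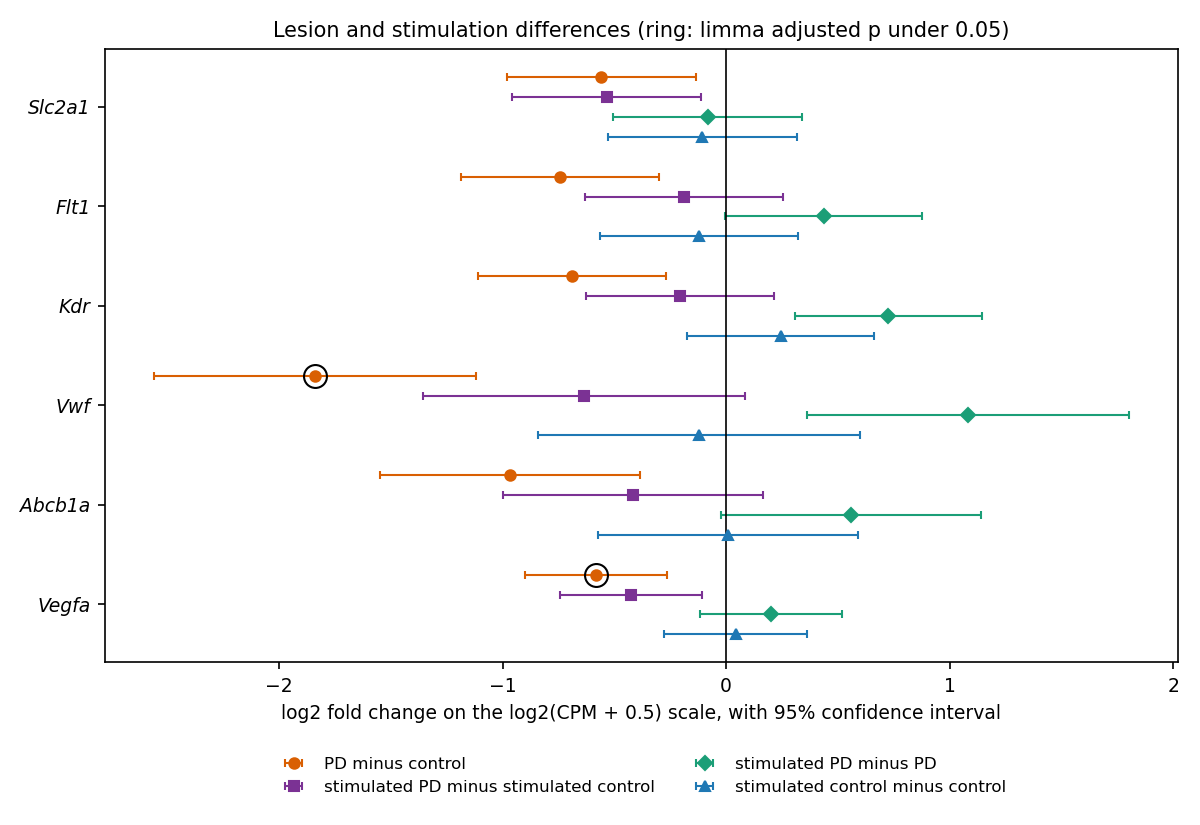
Log2 fold change with 95% confidence interval (horizontal axis) of each gene for the lesion without and with stimulation and for stimulation in PD and in control rats; rings mark an adjusted p under 0.05. Rings appear for Vwf (-1.84) and Vegfa (-0.58) in PD against control rats only.

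Stimulated PD rats were next set against PD rats, to find what differs with stimulation after the lesion. By limma 0 of 6 genes and 0% of all features passed; Kdr and Vwf had an unadjusted p under 0.05, as 17.4% of all features did. Kdr was 10.2 ± 1.49 CPM in PD and 17.3 ± 3.64 CPM in stimulated PD rats (SD, n = 3), without overlap (log2 difference 0.73, SE 0.19, limma adjusted p = 0.194). Vwf was 35.2 ± 12.4 and 78.4 ± 43.0 CPM (SD, n = 3), also without overlap (log2 difference 1.08, SE 0.33, limma adjusted p = 0.219). Of all features, 9.98% had every stimulated PD library above every PD library. Without stimulated PD rat 2 the Vwf difference was 0.67 (limma adjusted p = 0.581). The log2 difference was 0.44 for Flt1, 0.56 for Abcb1a and 0.20 for Vegfa, with overlapping libraries.

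For Slc2a1 no difference between the lesioned groups was detected. It stood at 118 ± 8.10 CPM in PD and 115 ± 31.7 CPM in stimulated PD rats (SD, n = 3; log2 difference -0.08, 95% confidence interval -0.51 to 0.34, limma adjusted p = 0.814). PD rats 1 and 2 weighed on this comparison in opposite directions. Without PD rat 1, Flt1, Kdr and Vwf passed as higher in stimulated PD rats (log2 difference 0.65, 0.81 and 1.31, limma adjusted p = 0.0335, 0.0271 and 0.0304), where 10.2% of all features did. Without PD rat 2, the median log2 difference of the 6 genes fell from 0.50 to 0.27. Then 0 of 6 genes and 0 of all features passed, the lowest limma adjusted p of any feature being 0.463. With all 12 libraries DESeq2 called Kdr and Vwf as higher (2 of 6, where 3.66% of features were). By edgeR 0 of 6 genes and 0 of all features were called.

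Against unstimulated controls, Slc2a1 was the only 1 of the 6 genes with all 3 stimulated PD libraries below all controls, as 25.9% of all features were. Its log2 difference was -0.64 (SE 0.19, limma adjusted p = 0.125). The Kdr difference was 0.04, with a 95% confidence interval of -0.38 to 0.46. Values for Vwf, Abcb1a, Vegfa and Flt1 were -0.76, -0.41, -0.38 and -0.31. By limma 0 of 6 passed, where 0.0334% of all features did. Slc2a1, Vwf and Vegfa had an unadjusted limma p under 0.05, as 20.9% of features did. The edgeR test called 0 of 6, and of all features 3 as lower and 2 as higher. DESeq2 called Slc2a1 as lower, 1 of 6, where it called 2.76% of features lower. The comparisons with PD and with stimulated PD rats use the same 3 control libraries.

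In unlesioned rats stimulation was accompanied by no called difference. By limma, edgeR and DESeq2 0 of 6 genes and 0 of all features passed. At an unadjusted limma p under 0.05, 0 of 6 genes passed against 1.79% of features. The log2 differences ran from -0.12 for Vwf and Flt1 to 0.24 for Kdr. The 95% confidence intervals were -0.84 to 0.60 for Vwf, -0.53 to 0.32 for Slc2a1, -0.57 to 0.59 for Abcb1a and -0.28 to 0.36 for Vegfa. As in every comparison, they use a single spread per gene fitted over all 12 libraries, so lesioned rats also set their width. For Vwf the SD of the log2 values was 0.11 in control and 0.28 in stimulated control rats. It was 0.56 in PD and 0.72 in stimulated PD rats. Averaged over PD and control rats, stimulation gave 0 of 6 calls and 0% of all features by limma; Kdr had the largest value of the 6, at 0.48 (SE 0.14, limma adjusted p = 0.348), and was the only 1 of the 6 with an unadjusted p under 0.05, as 13.7% of features had. By edgeR and DESeq2 0 of 6 passed. Over all features edgeR called 0, whereas DESeq2 called 52 as lower and 237 as higher.

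Vwf stood lower in PD rats than the other 5 genes did, relative to controls. In PD rats the log2 ratio of Vwf to each of the other 5 genes lay outside the range of controls in every rat. All 5 ratios share Vwf, which already had the largest PD difference of these genes (log2 fold change -1.84), so they are not independent. Of single features, 23.3% were separated as lower between PD and control rats. How often ratios between other features separate was not examined. The mean log2 ratio in PD minus that in control rats was -0.87 for Vwf over Abcb1a, -1.10 over Flt1, -1.15 over Kdr, -1.26 over Vegfa and -1.28 over Slc2a1. These ratios are within a library and do not depend on its scaling apart from the pseudocount. The log2 ratio of Vwf to Flt1 was 0.46, 0.37 and 0.60 in controls and -0.59, -0.88 and -0.38 in PD rats. In stimulated PD rats 1, 2 and 3 it was -0.39, 0.49 and -0.01, so that rat 2 again stood with the controls. None of the other 10 ratios between the genes separated PD from control rats.

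Across the 12 libraries the levels of Flt1, Vwf and Abcb1a followed each other most closely, as a description with no test. Pearson's r of the log2 values was 0.92 between Flt1 and both Vwf and Abcb1a, and 0.90 between Vwf and Abcb1a. Among the 14984 other tested features, Vwf was the 17th and Abcb1a the 21st most like Flt1. Seen from the other side, Flt1 ranked 57th for Vwf and 122nd for Abcb1a. Abcb1a ranked 167th for Vwf, and Vwf 257th for Abcb1a, so many other features were as like these genes. With each group's mean removed the 3 values were 0.80, 0.81 and 0.70, pooled over all groups. All 3 genes spread most in the lesioned groups, which weigh most in these values. They need not hold in each group. In stimulated control rats 1, 2 and 3 Flt1 stood at 76.0, 88.5 and 76.1 CPM, and Abcb1a at 52.2, 52.9 and 68.9 CPM. How common such values are among all features was not examined. Kdr was most like Vwf (r = 0.85) and least like Slc2a1 (r = 0.37). Slc2a1 and Vegfa had r of 0.51 over all libraries and -0.36 within groups. These points share library, depth and scaling, and high values were common: Slc2a1, at r = 0.58 with Flt1, ranked 3720th among the features most like Flt1.

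**Figure D5:**
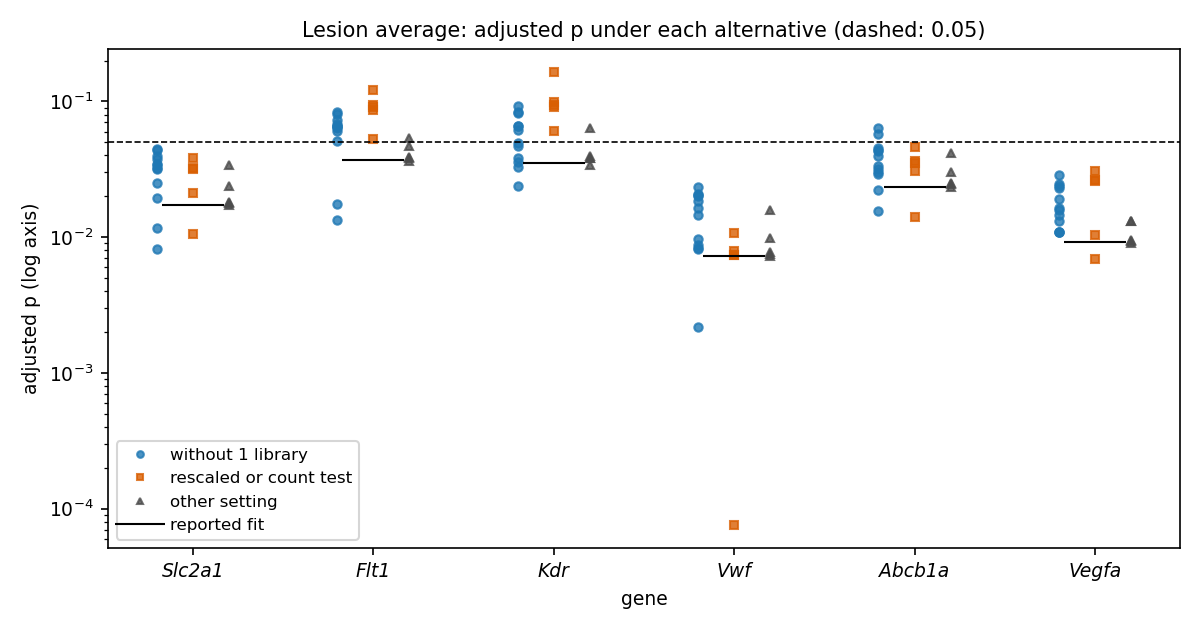
Adjusted p (log axis) of each gene for the lesion average with 1 library left out, with another scaling or a count test, and under other settings; the short lines are the reported values and the dashed line is 0.05. Vwf, Slc2a1 and Vegfa stay below the line under every alternative shown, whereas Flt1 and Kdr lie above it under each of the 5 rescaled or count tests.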

How the data were processed

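The authors deposited 1 table of CPM per feature for 12 libraries, 1 per rat, under Ensembl identifiers. Per the submitters' processing notes, tools included featureCounts, STAR and Trim Galore, with the assembly mRatBN7.2; libraries came from a stranded poly(A) kit, per the labels' protocols. Annotation release, strand setting and filter were not given in the sources used here. All columns were mapped through the samples' descriptions (0 unmatched). Every value (100%) was a whole multiple of its column's smallest value within 0.001 read, which gave whole reads.

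Features whose mean reached 0.5 CPM were tested with limma 3.58.1 (R 4.3.3, log2(CPM + 0.5), trended variance, 1 coefficient per group, 8 residual degrees of freedom, two-sided, Benjamini-Hochberg over 14985 features, threshold 0.05). The lesion average is the mean of the differences of PD from control and of stimulated PD from stimulated control rats. Alternatives were other pseudocounts, filters, scalings, variance priors and fitted groups, a block, edgeR 4.0.16 and DESeq2 1.42.0 on whole reads, and leaving out each library. The procedure was also run on simulated counts with equal numbers of features raised and lowered in lesioned rats. Those counts held neither a lean towards lower values nor a wider spread in PD rats, so that run is no check on either. The genes and lists were chosen with earlier results of these data known. The named genes are the 6 listed, with likeness (Pearson's r) given among them, since 0 identifiers matched a symbol; wider vascular, hypoxia and cell type lists are therefore not analysed here.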

Additional observations from a re-analysis of the deposited data

How the results depend on the processing

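Of the 48 log2 fold changes of single genes over the 8 comparisons, 24 of 1086 alternative values turned sign, all of them in differences that did not pass the test. Between PD and control rats 2 of the 6 genes were called, where 615 of all features were called lower. The number of genes was 1 with a pseudocount of 2 CPM, TMM factors, median-of-ratios factors, quantile normalization, no variance trend and edgeR. Of all features 445, 349, 347, 201, 525 and 369 were then called lower. With DESeq2 the number of genes was 4 (1140 of all features lower), and without 1 library 0 to 4 (2 to 894 lower). For the lesion average (6 genes, 2703 features lower) it was 3 to 6 without 1 library (1512 to 3324 lower). Between stimulated PD and PD rats (0) it was 2 with DESeq2 (548 features higher) and 0 to 3 without 1 library (0 to 1529 higher). Between stimulated PD and control rats (0) it was 1 with DESeq2, where 2.76% of all features were called lower. With only these groups fitted it was also 1, where 11.9% were.

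Rat numbers are those of the sample titles, and whether equal numbers mark paired libraries cannot be told from these data. Of 18 pairs with equal numbers, 3 had correlated deviations above 0.1 (lowest -0.46, highest 0.36). Deviations from the means of only 3 rats cannot show that pairing is absent. With the rat number as a replicate block, 1 gene was called between PD and control rats, where 1.81% of all features were called lower, and 4 for the lesion average, where 14.4% were.

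Sign changes were these. Abcb1a in stimulated against unstimulated controls was 0.01 as reported, and -0.024, -0.025, -0.018, -0.027 and -0.022 with TMM factors, median-of-ratios factors, quantile normalization, edgeR and DESeq2, and -0.12 to 0.091 without 1 library. The interaction for Slc2a1 was 0.02 as reported, and -0.024, -0.030, -0.0053 and -0.023 with TMM factors, median-of-ratios factors, edgeR and DESeq2, and -0.17 to 0.23 without 1 library. Without 1 library, values ranged from -0.28 to 0.041 for Slc2a1, -0.27 to 0.015 for Vwf and -0.034 to 0.13 for Vegfa in stimulated against unstimulated controls, from -0.28 to 0.13 for Slc2a1 in stimulated PD against PD rats, from -0.19 to 0.011 for Slc2a1 averaged over both stimulation differences, and from -0.10 to 0.20 for Kdr in stimulated PD against control rats. The cause was not tested. The alternatives for the wider gene lists were not run, because no table used here gives their identifiers. Over all features, 615 were called lower in PD than control rats, 201 to 1140 under the other scalings and count tests, and 2 to 894 without 1 library. For stimulated PD against stimulated control rats these were 151, 7 to 979 and 1 to 1541. For the lesion average, 2703 became 1425 to 2152 under the other scalings and count tests and 1512 to 3324 without 1 library.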
